A study of Saccharomyces cerevisiae with 18 samples.

Results

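A set of 10 genes of methionine metabolism were followed across every library of an RNA-Seq study of yeast carrying different alleles of the transcription factor gene *YRR1*. They comprise the AdoMet synthetase genes *SAM1* and *SAM2*, the S-adenosylhomocysteine hydrolase gene *SAH1*, the methionine synthase gene *MET6*, the permease genes *SAM3*, *MUP1* and *MUP3*, and *MET4*, *MET28* and *MET32*, which encode regulators of the pathway. The members were chosen by gene name, with earlier results of these data known. Each name was matched to 1 locus, giving 10 of the 6713 loci counted. By the paper's description, all libraries came from Saccharomyces cerevisiae S96, a laboratory strain, in which the chromosomal *YRR1* was deleted. A plasmid copy, kept with G418 and expressed from the *YRR1* promoter, took its place. By the counts given below, *SNF1* was nearly absent from the Yrr1IE libraries only, so a shared background cannot be assumed for them. The plasmid held *YRR1* of S96 (Yrr1S), *YRR1* of the clinical isolate YJM789 (Yrr1Y), or the S96 form carrying I775E (Yrr1IE). Cells were grown in YPD, which holds dextrose, for 2.5 h, in YPD with 0.25 µg/ml of the mutagen 4NQO for 2.5 h, or, after a wash, in 3% glycerol for 10 h. The 9 conditions had 2 libraries each, named here by the depositors' numbers S1 to S18, and no library is a control for the plasmid itself. In every contrast of glycerol with YPD the carbon source, the time and the wash cannot be told apart.

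Methionine is converted by AdoMet synthetase into S-adenosylmethionine, or AdoMet, which gives its methyl group to lipids, proteins, RNA and small molecules. The S-adenosylhomocysteine left over is split by Sah1 into adenosine and homocysteine, and Met6 methylates homocysteine back to methionine with a folate donor. Yeast also takes up methionine through the high-affinity permease Mup1 and the low-affinity permease Mup3, and takes up AdoMet through Sam3. Transcription of the pathway depends on Met4, an activator without DNA-binding ability of its own, which is brought to promoters by Cbf1 together with Met28, or by the zinc-finger proteins Met31 and Met32. When sulfur compounds are plentiful, Met4 is held inactive through ubiquitination by the Met30 complex, a control that does not act on the level of the *MET4* transcript.

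Because Met4 acts through 2 short DNA elements, the stretches before the start codons are shown first, read 5′ to 3′ on the strand of the gene from the R64 reference genome of RefSeq, with the motif in capitals. The motifs searched on both strands were CACGTG, the core bound by Cbf1, which reads the same on both strands, and AAACTGTG, bound by Met31 and Met32, which reads CACAGTTT where it lies on the opposite strand. The stretches chosen hold the AAACTGTG motif of the 6 tested members that have one, and the CACGTG of *SAH1* for comparison.
*SAM1*, chrXII:514970-515007, + strand: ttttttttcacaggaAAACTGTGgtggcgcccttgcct
*SAM2*, chrIV:1454742-1454802, − strand: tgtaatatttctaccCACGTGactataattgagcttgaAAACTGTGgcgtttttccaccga
*MET6*, chrV:342452-342489, − strand: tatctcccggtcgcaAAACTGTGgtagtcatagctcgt
*MUP1*, chrVII:598939-598976, + strand: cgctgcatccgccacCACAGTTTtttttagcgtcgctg
*MUP3*, chrVIII:26044-26081, + strand: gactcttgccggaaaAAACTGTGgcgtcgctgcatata
*MET32*, chrIV:964868-964958, − strand: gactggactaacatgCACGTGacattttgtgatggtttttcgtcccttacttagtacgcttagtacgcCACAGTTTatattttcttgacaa
*SAH1*, chrV:237340-237375, − strand: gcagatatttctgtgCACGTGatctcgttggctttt

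Within the 500 bases before the start codon, 7 of the 10 members held CACGTG and 7 held AAACTGTG. Over the 6000 windows of this length before protein-coding genes, 6.23% held CACGTG, 2.7% held AAACTGTG and 0.433% held both. Both motifs stood before 5 members, *SAM2*, *MET6*, *MUP3*, *MET28* and *MET32*. In *SAM2* the Cbf1 core began 323 bases and the Met31/Met32 motif 300 bases before the start codon, the closest spacing of the 5. *SAM1* and *MUP1* held AAACTGTG alone, *SAH1* and *MET4* held CACGTG alone, and *SAM3* held neither in this window. These matches describe the letters in the window, and no binding was measured here.

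**Figure D1:**
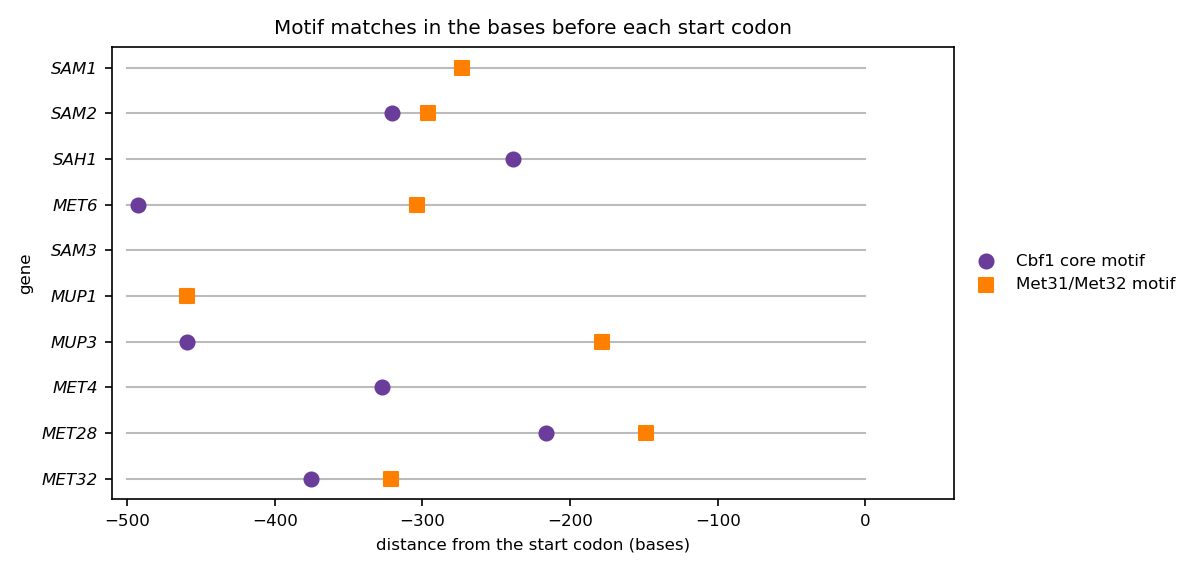
Positions of the Cbf1 core motif (circles) and the Met31/Met32 motif (squares) in the 500 bases before the start codon of each of the 10 genes; the x axis is the distance from the start codon in bases. The pairs of symbols stand before 5 genes that carry both symbols, and *SAM3* carries neither.

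The values come in 2 measures, which answer different questions. Counts divided by the library's total in genes, scaled by TMM (CPM), compare 1 gene between libraries, and FPKM, which also divide by the length of the gene, compare genes with each other within a library. Comparisons were tested with edgeR over the 5766 loci that passed a filter on low counts, and a gene was called at an adjusted p under 0.05. Of the 10 members 9 passed the filter. Total counts per library ran from 1475372 to 2826771. Values below are given in the order of the library numbers, and folds are log2 fold changes ± standard error.

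The Yrr1IE libraries stood apart from the others outside this set of genes. *SNF1*, which encodes the kinase needed for growth without glucose, had 0 to 2 counts in all 6 Yrr1IE libraries and 179 to 297 counts in the other 12. The *YRR1* allele and this difference cannot be told apart in any contrast of Yrr1IE with another allele. *YRR1* itself was also lower in the Yrr1IE libraries in each medium, without overlap. In YPD it was at 41.4 and 49.9 CPM in Yrr1IE, against 80.0 to 122 CPM with the other alleles. In 4NQO it was at 62.6 and 53.7 CPM against 103 to 142 CPM, and in glycerol at 138 and 97.8 CPM against 152 to 253 CPM. This lower level cannot be told apart from the allele or from the *SNF1* difference either. Counts do not show which allele was present. The strain is of mating type a, and all 5 a-cell markers were counted in every library, while of the 4 alpha-cell markers *MF(ALPHA)1* had 0 to 11 counts and the others were never at 0. The summed level of the a-cell markers was 2776 to 4360 CPM in YPD, 2231 to 3377 CPM in 4NQO and 234 to 926 CPM in glycerol, and that of the alpha-cell markers 59.4 to 92.3, 71.0 to 101 and 97.4 to 175 CPM. In glycerol *STE2*, the alpha-factor receptor gene, was at 74.1 to 87.4 CPM in Yrr1S, down from 1469.8 to 1668 CPM in YPD. In Yrr1IE it was at 317 to 420 CPM, down from 1766 to 1791 CPM. *STE3*, the a-factor receptor gene, was at 20.4 to 23.8 CPM in Yrr1S in glycerol, up from 2.37 to 2.49 CPM. Most of the alpha-cell sum was *SAG1*, at 53.2 to 119 CPM over all libraries, and *MF(ALPHA)2* stayed at 1.69 to 8.91 CPM. The 2 libraries of a condition correlated at r of 0.962 to 0.984 over the tested loci, but each 4NQO pair of Yrr1Y (0.979) and of Yrr1IE (0.971) correlated less within itself than with some library of another condition (0.983 and 0.973).

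*MET28* could not be measured. It had 0 counts in 13 libraries, 1 count in S7, S8, S9 and S18 and 2 counts in S12, all below the 3 counts taken as the limit of detection, which correspond to 1.02 to 2.08 CPM. The locus (YIR017C, chromosome IX, 383556 to 384119, − strand) shares 98.2% of its bases with the opposing locus YIR017W-A, which had 0 to 2 counts as well. Among the 262 loci that share at least 95% of their bases with another locus, 83.2% had 10 or fewer counts summed over the 18 libraries, compared with 1.96% of the 5344 loci that share none. The libraries were unstranded, so reads there cannot be assigned to one of the loci, and the low counts say nothing about the transcript. No other member shares a base with another locus. For the isozyme genes *SAM1* and *SAM2*, which are 83.0% identical over 1149 aligned bases, the longest identical run was 59 bases and no 76-base read length occurred in both, although 47 of the 1080 aligned windows of that length held at most 2 differences, where an aligner that allows mismatches could place a read in either gene.

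**Figure D2:**
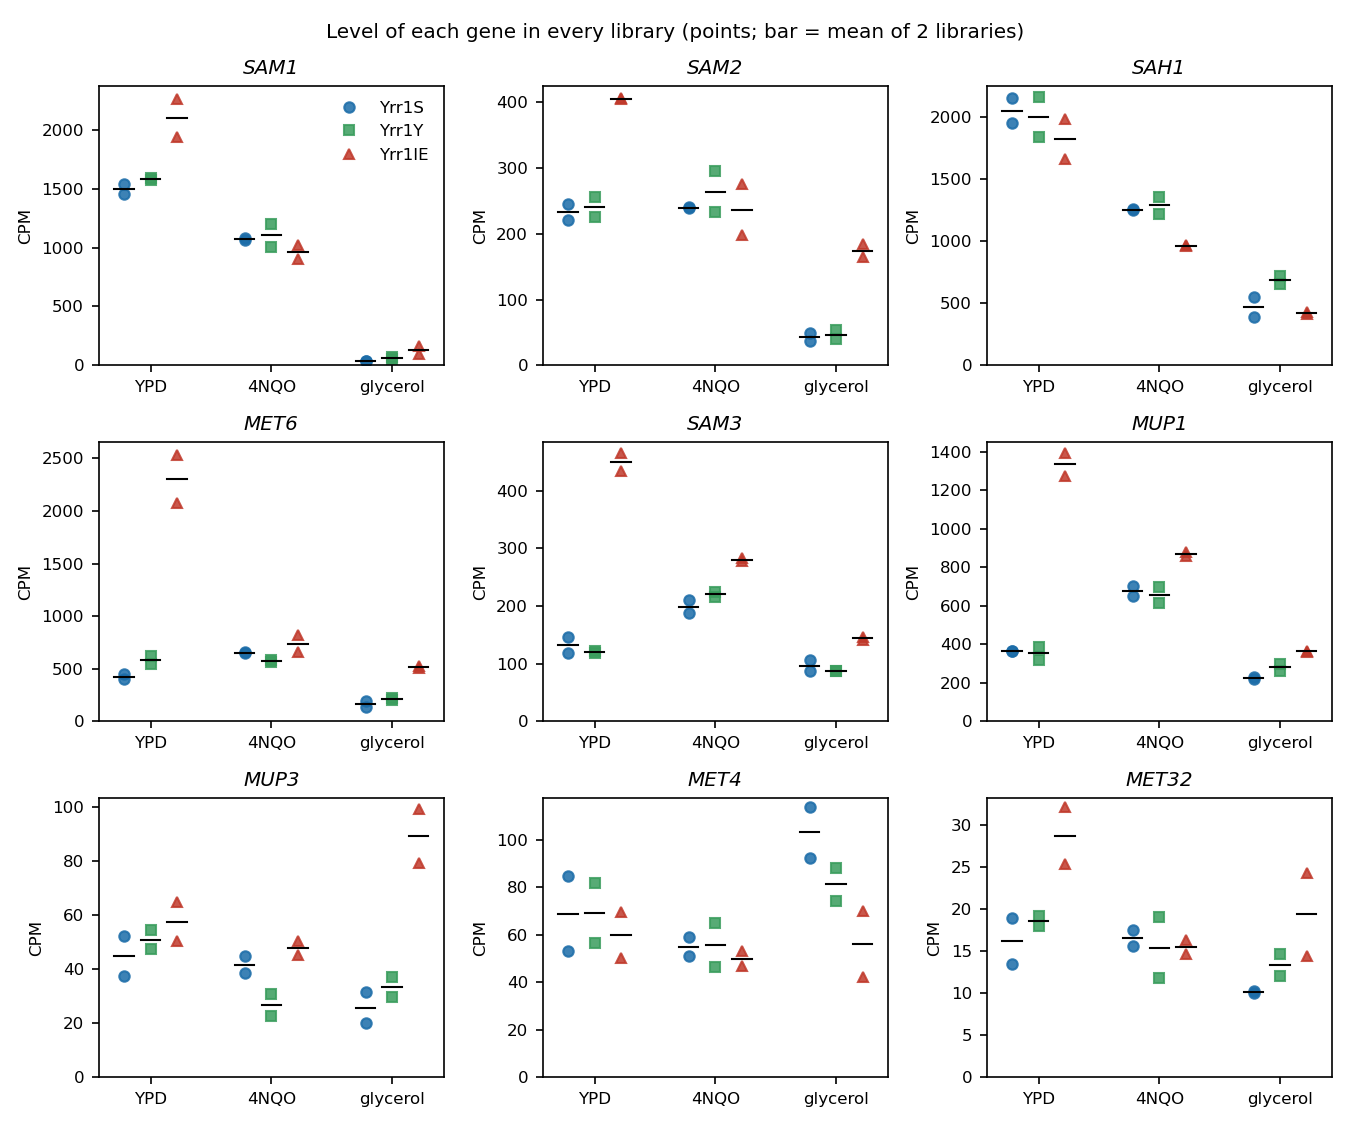
CPM of the 9 tested genes in each library, by medium (x axis) and by allele (circles Yrr1S, squares Yrr1Y, triangles Yrr1IE); black bars are the means of 2 libraries and each y axis starts at 0. The triangles for *MET6*, *SAM3* and *MUP1* in YPD lie above all other points of those genes.

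*SAM1* and *SAM2* both make AdoMet from methionine and ATP. *SAM1* (YLR180W, chromosome XII, 515262 to 516410, 1 exon) was the more abundant in dextrose and was close to or below *SAM2* in glycerol. In Yrr1S libraries *SAM1* was at 1450.4 and 1543 CPM in YPD, 1064 and 1081 CPM in 4NQO, and 41.6 and 38.6 CPM in glycerol. In Yrr1Y libraries it was at 1589 and 1571 CPM in YPD, 1005 and 1203 CPM in 4NQO, and 69.0 and 51.7 CPM in glycerol. In Yrr1IE libraries it was at 1934 and 2259 CPM in YPD, 1025 and 900.2 CPM in 4NQO, and 163 and 98.3 CPM in glycerol. The media did not overlap within any allele, and every glycerol library was below every library of the other media. The log2 fold change of glycerol over YPD was -5.22 ± 0.19 for Yrr1S (adjusted p = 5.626e-20), -4.71 ± 0.18 for Yrr1Y and -4.02 ± 0.17 for Yrr1IE, making *SAM1* the member with the largest fall in all 3 strains. The fall was smaller in Yrr1IE than in Yrr1S, with a difference of 1.20 ± 0.25 between the responses (adjusted p = 0.0004051), and no difference was detected between Yrr1Y and Yrr1S (0.51 ± 0.25, adjusted p = 0.4575). In 4NQO the log2 fold change of *SAM1* was -0.48 ± 0.15 in Yrr1S (adjusted p = 0.01235), -0.52 ± 0.15 in Yrr1Y (adjusted p = 0.01158) and -1.12 ± 0.15 in Yrr1IE (adjusted p = 1.319e-06). The call was lost without S4 in Yrr1S (adjusted p = 0.06062) and without S1 or S7 in Yrr1Y (adjusted p = 0.06137 and 0.164).

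*SAM2* (YDR502C, chromosome IV, 1453310 to 1454464, 1 exon) was higher with Yrr1IE than with the other alleles in YPD and in glycerol. Its CPM were 245 and 221 in YPD, 239 and 240.3 in 4NQO, and 37.5 and 48.8 in glycerol for Yrr1S. For Yrr1Y they were 225 and 257 in YPD, 233 and 296 in 4NQO, and 54.3 and 39.6 in glycerol. For Yrr1IE they were 406 and 405 in YPD, 275 and 198 in 4NQO, and 184 and 165 in glycerol. The YPD and glycerol values of Yrr1IE were above those of both other alleles without overlap, whereas the 4NQO values overlapped theirs. The log2 fold change of *SAM2* in glycerol was -2.43 ± 0.18 in Yrr1S, -2.35 ± 0.18 in Yrr1Y and -1.22 ± 0.16 in Yrr1IE, and the responses differed by 1.21 ± 0.25 (adjusted p = 0.0003368). In 4NQO it changed by 0.04 ± 0.16 in Yrr1S (adjusted p = 0.8737) and 0.14 ± 0.16 in Yrr1Y (adjusted p = 0.6075), and fell by 0.77 ± 0.16 in Yrr1IE (adjusted p = 0.0004424).

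The balance of the isozyme genes followed the medium. Per length, the *SAM1* FPKM was 4.78 to 7.10 times the *SAM2* FPKM in the 6 YPD libraries, 3.74 to 4.57 times in the 6 libraries with 4NQO and 0.600 to 1.31 times in the 6 glycerol libraries. The ranges of the 3 media did not overlap. *SAM1* was below *SAM2* in 3 of the 6 glycerol libraries, S16 of Yrr1S and both of Yrr1IE. The summed FPKM of the pair was 74.2 to 294 compared with 1373 to 2157 in YPD.

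**Figure D3:**
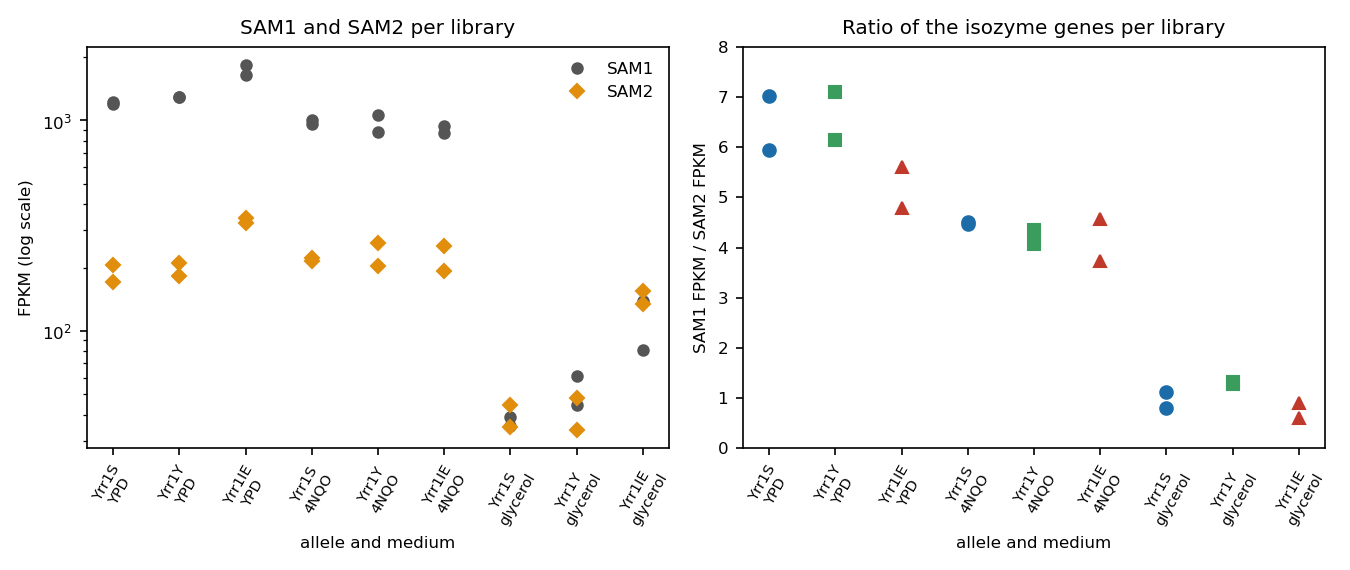
Left, FPKM (log axis) of *SAM1* (circles) and *SAM2* (diamonds) in each library, 2 per condition; right, the ratio of *SAM1* FPKM to *SAM2* FPKM in the same libraries, on an axis from 0. The ratio lies between 4.78 and 7.10 in YPD and between 0.600 and 1.31 in glycerol.

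*SAH1* (YER043C, chromosome V, 235770 to 237119, 1 exon) encodes the enzyme that removes S-adenosylhomocysteine, an inhibitor of methyltransferases. It was at 1951 and 2154 CPM in YPD, 1257 and 1248 CPM in 4NQO, and 551 and 389.7 CPM in glycerol for Yrr1S. For Yrr1Y it was at 2162 and 1838 CPM in YPD, 1217 and 1360.3 CPM in 4NQO, and 722 and 656 CPM in glycerol. For Yrr1IE it was at 1665 and 1981 CPM in YPD, 963 and 968 CPM in 4NQO, and 428 and 415 CPM in glycerol. The order of YPD over 4NQO over glycerol held in all 3 strains without overlap. *SAH1* fell in 4NQO by 0.71 ± 0.13 in Yrr1S, 0.63 ± 0.13 in Yrr1Y and 0.92 ± 0.14 in Yrr1IE on the log2 scale (adjusted p = 0.0001123, 0.0007954 and 7.438e-06). No difference between these responses was detected (Yrr1IE minus Yrr1S, -0.20 ± 0.19, adjusted p = 0.6639). In YPD no difference in *SAH1* between the strains was called either. *SAH1* was the 1 member called between Yrr1Y and Yrr1S in glycerol, where Yrr1Y was higher by 0.55 ± 0.14 (adjusted p = 0.01909). That call was lost without S13, S14 or S16, where the log2 fold change ran from 0.31 to 0.61.

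*MET6* (YER091C, chromosome V, 339864 to 342167, 1 exon), the cobalamin-independent methionine synthase gene, showed the largest difference between strains among the members. Its CPM in Yrr1S were 404 and 447 in YPD, 661 and 645 in 4NQO, and 137 and 192 in glycerol. In Yrr1Y they were 547 and 624 in YPD, 588 and 569 in 4NQO, and 225 and 204 in glycerol. In Yrr1IE they were 2078 and 2535 in YPD, 818 and 661 in 4NQO, and 522 and 509 in glycerol. In YPD both Yrr1IE values were far above the other 4, and in 4NQO the Yrr1IE and Yrr1S values met. *MET6* was 5.42-fold higher in Yrr1IE than in Yrr1S in YPD (log2 fold change 2.44 ± 0.14, adjusted p = 7.321e-14), 3.13-fold higher in glycerol (1.64 ± 0.15, adjusted p = 2.873e-10), and not called in 4NQO (0.18 ± 0.14, adjusted p = 0.5789). In 4NQO it rose by 0.62 ± 0.14 in Yrr1S (adjusted p = 0.000955), was at -0.02 ± 0.14 in Yrr1Y (adjusted p = 0.9466), and fell by 1.64 ± 0.14 in Yrr1IE (adjusted p = 4e-10). The response of Yrr1IE differed from that of Yrr1S by -2.26 ± 0.20 (adjusted p = 1.352e-09). The response of Yrr1Y differed by -0.63 ± 0.20, which was not called over all loci (adjusted p = 0.176) and was called when only the libraries compared were fitted (adjusted p = 0.02981).

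The permease genes *MUP1* and *SAM3* moved like *MET6* in Yrr1IE. *MUP1* (YGR055W, chromosome VII, 599417 to 601141, 1 exon) was at 363 and 367 CPM in YPD, 704 and 652 CPM in 4NQO, and 221 and 228 CPM in glycerol for Yrr1S. For Yrr1Y it was at 318 and 388 CPM in YPD, 617 and 696 CPM in 4NQO, and 264 and 298 CPM in glycerol. For Yrr1IE it was at 1276 and 1392 CPM in YPD, 878 and 857 CPM in 4NQO, and 360.2 and 367 CPM in glycerol. With Yrr1S and Yrr1Y the highest values were those in 4NQO, and with Yrr1IE they were those in YPD. *MUP1* rose in 4NQO by 0.89 ± 0.12 in Yrr1S (adjusted p = 1.107e-06) and by 0.90 ± 0.12 in Yrr1Y (adjusted p = 2.042e-06), and fell by 0.62 ± 0.12 in Yrr1IE (adjusted p = 0.0002235). The difference of the Yrr1IE response from that of Yrr1S was -1.51 ± 0.17 (adjusted p = 2.025e-07), and that of Yrr1Y was 0.00 ± 0.17 (adjusted p = 0.9999).

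*SAM3* (YPL274W, chromosome XVI, 22938 to 24701, 1 exon), the AdoMet permease gene, had 146 and 119 CPM in YPD, 188 and 209.7 CPM in 4NQO, and 86.9 and 107 CPM in glycerol for Yrr1S. For Yrr1Y it had 119 and 122 CPM in YPD, 225 and 215 CPM in 4NQO, and 87.8 CPM in each glycerol library. For Yrr1IE it had 435 and 466 CPM in YPD, 283 and 278 CPM in 4NQO, and 142 and 147 CPM in glycerol. As for *MUP1*, 4NQO gave the highest values with Yrr1S and Yrr1Y but not with Yrr1IE. *SAM3* rose in 4NQO by 0.60 ± 0.14 in Yrr1S (adjusted p = 0.001167) and 0.87 ± 0.14 in Yrr1Y (adjusted p = 3.069e-05), and fell by 0.68 ± 0.13 in Yrr1IE (adjusted p = 0.0002266), with a difference of -1.28 ± 0.19 between Yrr1IE and Yrr1S (adjusted p = 2.527e-05). The rise in Yrr1S was lost without S4 (0.40, adjusted p = 0.09748). Although no motif stood before *SAM3* in the window searched, its log2 CPM followed those of *MUP1* (r = 0.973) and *MET6* (r = 0.909) over the 18 libraries, which share media and alleles.

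*MUP3* (YHL036W, chromosome VIII, 26241 to 27881, 1 exon) behaved differently from *MUP1*, with which it shares 54.5% of aligned bases. It was at 37.4 and 52.2 CPM in YPD, 44.7 and 38.4 CPM in 4NQO, and 20.1 and 31.5 CPM in glycerol for Yrr1S. For Yrr1Y it was at 47.5 and 54.3 CPM in YPD, 30.6 and 22.8 CPM in 4NQO, and 29.8 and 37.0 CPM in glycerol. For Yrr1IE it was at 64.6 and 50.3 CPM in YPD, 50.5 and 45.3 CPM in 4NQO, and 99.2 and 79.3 CPM in glycerol. Glycerol thus gave the lowest values with Yrr1S and the highest with Yrr1IE. The log2 fold change of glycerol over YPD was -0.80 ± 0.25 in Yrr1S (adjusted p = 0.006352), -0.61 ± 0.24 in Yrr1Y (adjusted p = 0.03226) and 0.63 ± 0.22 in Yrr1IE (adjusted p = 0.01266), and the Yrr1IE response differed from that of Yrr1S by 1.43 ± 0.33 (adjusted p = 0.001201). Within each strain the *MUP3* call in glycerol was lost on leaving out 1 library, S4 or S15 for Yrr1S (adjusted p = 0.07997 and 0.1337), S2 or S13 for Yrr1Y (0.09465 and 0.1099) and S6 or S17 for Yrr1IE (0.1864 and 0.1223). In 4NQO *MUP3* fell in Yrr1Y by 0.94 ± 0.25 (adjusted p = 0.006535), a call lost without S2 (adjusted p = 0.0613) or S8 (adjusted p = 0.09481).

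The regulator transcripts were low, and most of their contrasts were not called. *MET4* (YNL103W, chromosome XIV, 427735 to 429753, 1 exon) was at 84.7 and 53.3 CPM in YPD, 51.1 and 59.1 CPM in 4NQO, and 92.4 and 114 CPM in glycerol for Yrr1S. For Yrr1Y it was at 81.8 and 56.6 CPM in YPD, 46.4 and 64.9 CPM in 4NQO, and 88.2 and 74.5 CPM in glycerol. For Yrr1IE it was at 69.5 and 50.3 CPM in YPD, 47.0 and 53.1 CPM in 4NQO, and 70.1 and 42.2 CPM in glycerol. The YPD pairs were wide, and in YPD and in 4NQO the 3 strains overlapped. In YPD, where *MET6*, *MUP1* and *SAM3* were several-fold higher in Yrr1IE, *MET4* was at -0.20 ± 0.24 relative to Yrr1S (adjusted p = 0.6723). In glycerol it was lower in Yrr1IE than in Yrr1S by 0.90 ± 0.24 on the log2 scale (adjusted p = 0.002622), a call lost without S16 (-0.67, adjusted p = 0.06167) or S18 (-0.48, adjusted p = 0.1646). The rise of *MET4* in glycerol in Yrr1S (0.59 ± 0.23, adjusted p = 0.02635) was lost without S4 (0.17, adjusted p = 0.6149) or S16 (0.32, adjusted p = 0.3587), and by DESeq2 (adjusted p = 0.0628).

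*MET32* (YDR253C, chromosome IV, 963990 to 964565, 1 exon) had 22 to 72 counts per library. In Yrr1S it was at 18.9 and 13.4 CPM in YPD, 17.5 and 15.6 CPM in 4NQO, and 10.1 and 10.2 CPM in glycerol. In Yrr1Y it was at 18 and 19.2 CPM in YPD, 19.0 and 11.8 CPM in 4NQO, and 14.7 and 12.1 CPM in glycerol. In Yrr1IE it was at 32.1 and 25.3 CPM in YPD, 14.6 and 16.3 CPM in 4NQO, and 24.3 and 14.4 CPM in glycerol. The 2 Yrr1IE libraries in YPD were the highest of all 18. The difference between Yrr1IE and Yrr1S in YPD was 0.84 ± 0.31 and was not called (adjusted p = 0.08009). *MET32* fell in 4NQO in Yrr1IE by 0.89 ± 0.32 (adjusted p = 0.04059) and was higher in Yrr1IE than in Yrr1S in glycerol by 0.90 ± 0.36 (adjusted p = 0.03916). Both of these calls were lost by DESeq2 (adjusted p = 0.05963 and 0.05164). Without 1 library the first was lost whichever of S5, S6, S11 or S12 was left out (adjusted p = 0.05019 to 0.1926), and the second without S15, S16 or S17 (adjusted p = 0.08526 to 0.3603).

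Counted together, the members that responded to 4NQO were mixed in direction in Yrr1S and Yrr1Y and all lower in Yrr1IE. In Yrr1S, 3 of the 9 tested members rose and 2 fell, against 15.9% of all tested loci called higher and 15.3% called lower. In Yrr1Y, 2 rose and 3 fell (10.3% and 9.85% of all loci), the members that rose being *SAM3* and *MUP1*. In Yrr1IE none rose and 7 fell (12.9% and 13% of all loci), and the 2 not called were *MUP3* and *MET4*. The median log2 fold change of the members was 0.04 in Yrr1S, -0.28 in Yrr1Y and -0.77 in Yrr1IE, beside medians of all loci of 0.03, 0.03 and 0.02. Of the 9, 4 had a response in Yrr1IE below that in Yrr1S (*MET6*, *MUP1*, *SAM3* and *SAM2*) and none above it, against 3.62% and 1.44% of all loci. The call for *SAM2* (-0.82 ± 0.22, adjusted p = 0.02733) was lost without S3, S4, S5, S6, S9, S10 or S12, where the difference ran from -0.88 to -0.58. No member differed between the responses of Yrr1Y and Yrr1S in edgeR or in DESeq2, where 2 had an unadjusted p under 0.05 in edgeR and 0.121% of loci were called above and 0.746% below. Each 4NQO response shares its YPD libraries with the glycerol response of the same strain and with the contrasts of alleles in YPD.

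In glycerol nearly every enzyme and permease gene was lower than in YPD. Of the 9 members, 7 fell and 1 rose in Yrr1S, 7 fell and none rose in Yrr1Y, and 6 fell and 1 rose in Yrr1IE. These contrasts moved much of the genome, since 28.6%, 27% and 32.3% of all loci were called lower and 29.1%, 28.5% and 33.2% higher in the same order. The median log2 fold change of the members was -0.80, -0.61 and -1.64, beside 0.04, 0.04 and 0.03 for all loci. The a-cell markers were lower in the same libraries, as given above, and their part in these results was not tested. *SAM1*, *SAM2*, *SAH1* and *MET6* fell in all 3 strains, and so did *SAM3* and *MUP1*, but *SAM3* in Yrr1S fell by only 0.45 ± 0.15 (adjusted p = 0.009787), a call lost without S15 (adjusted p = 0.1367), and *MUP1* in Yrr1Y by 0.33 ± 0.13 (adjusted p = 0.02828), a call lost without S2 or S13 (adjusted p = 0.1321 and 0.06971) and when only the libraries compared were fitted (adjusted p = 0.0514). Between Yrr1IE and Yrr1S the glycerol response was higher for *SAM1*, *SAM2* and *MUP3* and lower for *MET6*, *SAM3* and *MUP1*, beside 12% of all loci called higher and 19.4% lower, and the call for *MET6* (-0.79 ± 0.20, adjusted p = 0.003225) was lost without S6 or S16 (adjusted p = 0.06666 and 0.1253). Between Yrr1Y and Yrr1S no member was called by edgeR or DESeq2 (2 at an unadjusted p under 0.05), with 0.364% of loci called higher and 0.26% lower.

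The strains with different alleles were also compared within a medium. In YPD, of the 9 members, 5 were higher in Yrr1IE than in Yrr1S (*MET6*, *MUP1*, *SAM3*, *SAM2* and *SAM1*) and none was lower, where 7.28% of all loci were called higher and 4.41% lower. Against Yrr1Y, 4 were higher (the same without *SAM1*) and none lower, where 7.42% and 6.73% of loci were called. *MUP1* was 3.66-fold higher than in Yrr1S (1.87 ± 0.12, adjusted p = 9.372e-13) and *SAM3* 3.41-fold higher (1.77 ± 0.14, adjusted p = 2.681e-11), whereas *SAM1* was 1.40-fold higher (0.49 ± 0.15, adjusted p = 0.02699) and lost its call without S3, S4 or S6 (adjusted p = 0.09281 to 0.258). Between Yrr1Y and Yrr1S no member was called by edgeR or DESeq2 in YPD, where 1 member, *MET6*, had an unadjusted p under 0.05 (log2 fold change 0.46 ± 0.14, adjusted p = 0.1422) and 0.728% of loci were called higher and 0.156% lower.

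In 4NQO the differences between the strains were small. *SAM3* was the 1 member called between Yrr1IE and Yrr1S (higher by 0.50 ± 0.13, adjusted p = 0.02579, with 2.01% of loci called higher and 2.5% lower), and *MUP3* the 1 called between Yrr1IE and Yrr1Y (higher by 0.85 ± 0.25, adjusted p = 0.04877, with 2.03% called in each direction). Each of these calls was lost on leaving out any 1 of its 4 libraries (adjusted p = 0.07112 to 0.2594 for *SAM3* and 0.08577 to 0.3177 for *MUP3*). For *MUP1* the difference from Yrr1S was 0.36 ± 0.12 (adjusted p = 0.09059 by edgeR and 0.04471 by DESeq2), and from Yrr1Y 0.40 ± 0.12 (adjusted p = 0.05563 by edgeR and 0.02403 by DESeq2), and the library values did not overlap. The *MUP3* call against Yrr1Y was lost by DESeq2 (adjusted p = 0.05845), so the member called there changed with the tool. No member was called between Yrr1Y and Yrr1S by edgeR or DESeq2, with 1 at an unadjusted p under 0.05 (*MUP3*, -0.64 ± 0.24, adjusted p = 0.7137), and 0.0173% of loci were called higher and 0.0347% lower.

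In glycerol 7 members were higher in Yrr1IE than in Yrr1S and 1, *MET4*, was lower, where 20.7% of loci were called higher and 27.6% lower and the median of all loci lay at -0.11. *SAM2* was 4.02-fold higher (2.01 ± 0.19, adjusted p = 5.806e-10), *MUP3* 3.43-fold higher (1.78 ± 0.24, adjusted p = 4.207e-07) and *SAM1* 3.21-fold higher (1.68 ± 0.20, adjusted p = 4.294e-08), and *SAH1* was the 1 tested member not called (-0.16 ± 0.14, adjusted p = 0.3673). Against Yrr1Y, 6 were higher and *SAH1* was lower by 0.71 ± 0.14 (adjusted p = 0.0001295), where 17.1% of loci were called higher and 26.1% lower. The *MUP1* call there (0.37 ± 0.13, adjusted p = 0.01853) was lost without S13 (adjusted p = 0.07501). Between Yrr1Y and Yrr1S 2.98% of loci were called higher and 0.763% lower in glycerol, among them *SAH1* as given above. Scaling by DESeq2 size factors in place of TMM moved the median of all loci by less than 0.1 in each comparison and changed no call of a member.

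**Figure D4:**
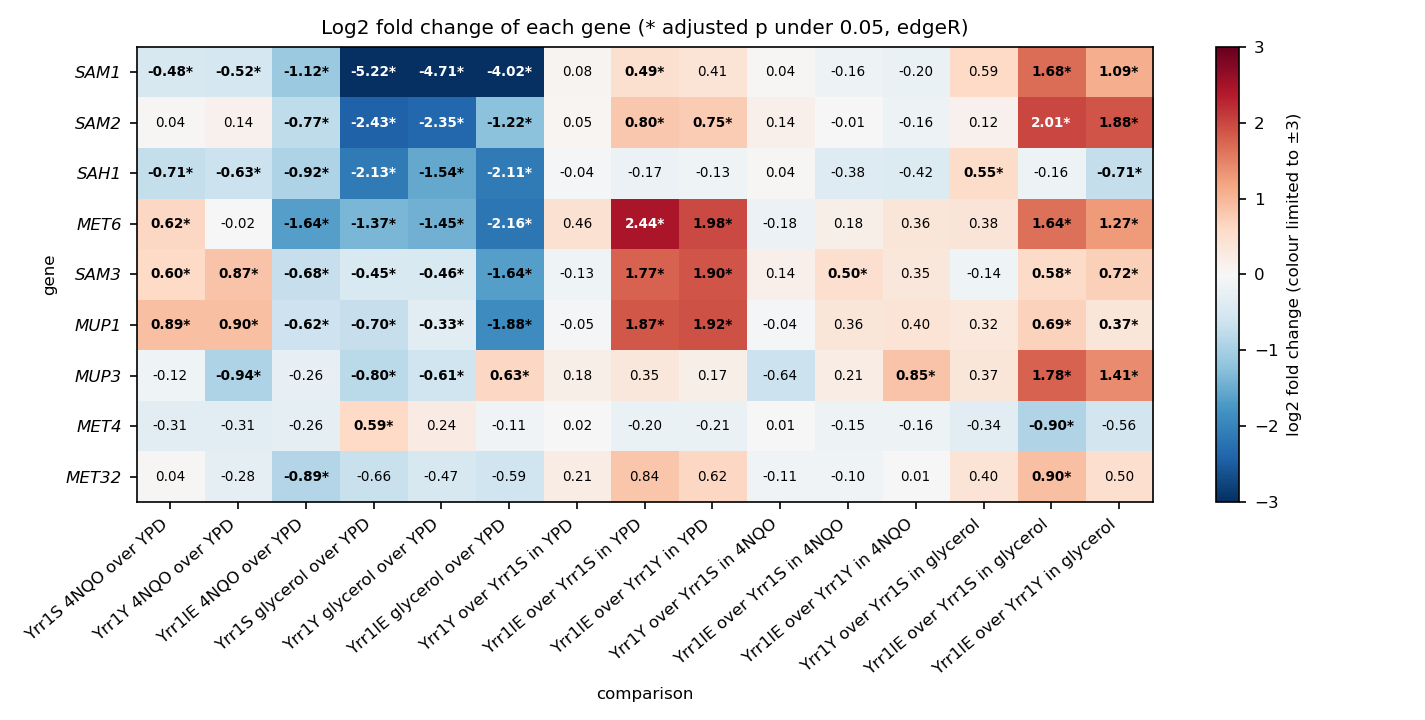
Log2 fold changes of the 9 tested genes (rows) in the 15 comparisons of media and alleles (columns); red is higher in the first named group, blue lower, the colour stops at ±3, and an asterisk marks an adjusted p under 0.05. *MET6*, *SAM3* and *MUP1* are red where Yrr1IE is compared with the other alleles in YPD, and *SAM1* has the largest falls in glycerol, -5.22, -4.71 and -4.02.

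By level per length, *SAH1* and *SAM1* led the members in dextrose. In YPD the mean FPKM of Yrr1S was 1417 for *SAH1* and 1215 for *SAM1*, followed by *MUP1* at 198, *SAM2* at 189 and *MET6* at 172, of which *MUP1* overlapped *SAM2* and *SAM2* overlapped *MET6*. *SAM3* followed at 70.4, and *MET4* (32.2), *MET32* (26.4) and *MUP3* (25.4) overlapped their neighbours. With Yrr1IE in YPD the order was *SAM1* (1738), *SAH1* (1286), *MET6* (953) and *MUP1* (738), none of which overlapped. *MET6* was also above *MUP1* without overlap with Yrr1Y in YPD (239 and 192 FPKM). In glycerol *SAH1* was first in every strain, at a mean FPKM of 372 in Yrr1S, 512 in Yrr1Y and 299.9 in Yrr1IE, and *SAM1* in Yrr1S stood seventh at 37.2, overlapping *SAM2* at 39.7.

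Genes outside the set with the most similar log2 CPM over the 18 libraries were found by Pearson's r, as a description, since the libraries share media, alleles and plasmid. *SAM3* and *MUP1* were closest to *MET17*, the O-acetylhomoserine sulfhydrylase gene, at r of 0.976 and 0.95, and *MET6* was closest to *TRP5* (0.963), *BAP3* (0.959) and *MET17* (0.945). *MET17* itself was at 3869 and 4407 CPM in Yrr1IE in YPD and at 254 to 284 CPM in YPD with the other alleles. *SAM1* was closest to *FKS1* (0.989), a glucan synthase gene, *HXT3* (0.984), a hexose transporter gene, and *OST1* (0.984). *SAM2* was closest to *OPT1* (0.974), a gene of peptide and glutathione transport, *TPO2* (0.961) and the a-factor gene *MFA2* (0.959), and *SAH1* to *NEW1* (0.99), *DBP2* (0.983) and *KRS1* (0.982). The weakest likeness was that of *MUP3* (YFR020W, 0.871), *MET4* (*CRP1*, 0.837) and *MET32* (*BER1*, 0.818), the 3 least counted of the tested members.

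The rest of the sulfur amino acid network was read from 7 lists of 55 genes, all of which passed the filter. *MET17*, at 0.899% of its bases, is the 1 gene named from them that overlaps another locus. The 12 genes of sulfate uptake and assimilation, which bring sulfate to sulfide and into homocysteine, were all higher in Yrr1IE than in Yrr1S in YPD. Of all loci 7.28% were called higher and 4.41% lower there. The median log2 fold change of the 12 was 3.14 beside -0.02 for all loci. The largest values were those of *MET17* (4.00 ± 0.15), *MET14* (3.89 ± 0.23), *MET3* (3.73 ± 0.16) and *SUL2* (3.50 ± 0.19). All 12 fell in 4NQO in Yrr1IE (median -1.85), beside 13% of all loci called lower. In Yrr1S 2 rose, *MET17* (1.12 ± 0.14) and *MET10* (0.75 ± 0.16), and none fell, a share of higher calls close to the 15.9% of all loci. The response of Yrr1IE was below that of Yrr1S for 12 of the 12, with a median of -2.24, beside 3.62% of all loci called lower and 1.44% higher. In glycerol 10 of the 12 fell in Yrr1IE and none rose, beside 32.3% of all loci called lower and 33.2% higher. In Yrr1S 4 rose and 2 fell, beside 29.1% and 28.6% of all loci, so the share of higher calls was close to that of the genome. The same Yrr1IE libraries in YPD enter each Yrr1IE contrast of these 12 genes given here.

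Other steps next to the members moved in part in this YPD contrast, in which 7.28% of all loci were called higher and 4.41% lower. Of the 6 genes of transsulfuration and glutathione entry, 5 were higher in Yrr1IE than in Yrr1S in YPD, led by *STR3* (4.60 ± 0.37), the cystathionine beta-lyase gene. Of the 8 other uptake genes 4 were higher, among them *MMP1* (2.07 ± 0.16), the S-methylmethionine permease gene, and *YCT1* (1.29 ± 0.18), a cysteine transporter gene, and 1 was lower. Of the 6 other genes of the methionine cycle and its folate link 2 were higher, *MHT1* (2.53 ± 0.35), whose product makes methionine from S-methylmethionine, and *MET13* (1.24 ± 0.22), a methylenetetrahydrofolate reductase gene, and *MET12* was lower (-0.71 ± 0.16). None of the 8 other regulator genes, which include *MET31*, *CBF1* and *MET30*, was called there in either direction by edgeR. Of the 9 methionine salvage genes 1 was higher, *ADI1* (1.35 ± 0.29), a share near that of all loci, and of the 6 genes that use AdoMet for lipids and polyamines none was higher and *ERG6* was lower (-0.52 ± 0.14).

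In glycerol 1 of the 6 AdoMet-using genes rose and 4 fell in Yrr1S, beside 29.1% and 28.6% of all loci. *OPI3*, which encodes a phospholipid methyltransferase, rose by 2.89 ± 0.15 (adjusted p = 8.106e-17), while *CHO2*, which encodes the other phospholipid methyltransferase of the list, fell by 0.68 ± 0.12 (adjusted p = 2.368e-05), and *SPE4* (-1.93 ± 0.21), *SPE2* (-0.78 ± 0.15) and *SPE3* (-0.70 ± 0.13), genes of polyamine synthesis, fell together with *SAM1* and *SAM2*. Of the 6 other genes of the methionine cycle and its folate link, 1 was called higher and 4 lower in Yrr1S. Among them *ADO1*, the adenosine kinase gene that works next to *SAH1*, fell by 1.42 ± 0.13. Of the 6 genes of transsulfuration and glutathione entry, 2 were called higher and 3 lower, beside the same shares of all loci. *CYS3* and *CYS4*, the genes that pass homocysteine on to cysteine, had log2 fold changes of -2.68 ± 0.15 and -1.67 ± 0.13. *STR3* (2.45 ± 0.42) and *STR2* (1.27 ± 0.22), the genes of the opposite route from cysteine to homocysteine, rose. Of the 8 other regulator genes, 3 were called higher and 0 lower in Yrr1S. In Yrr1IE 4 were called higher and 1 lower, beside 33.2% and 32.3% of all loci. Among these genes *MET30*, the F-box gene that restrains Met4, rose by 0.87 ± 0.17 in Yrr1S and by 1.15 ± 0.17 in Yrr1IE. Its part in the levels of the other genes was not tested.

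**Figure D5:**
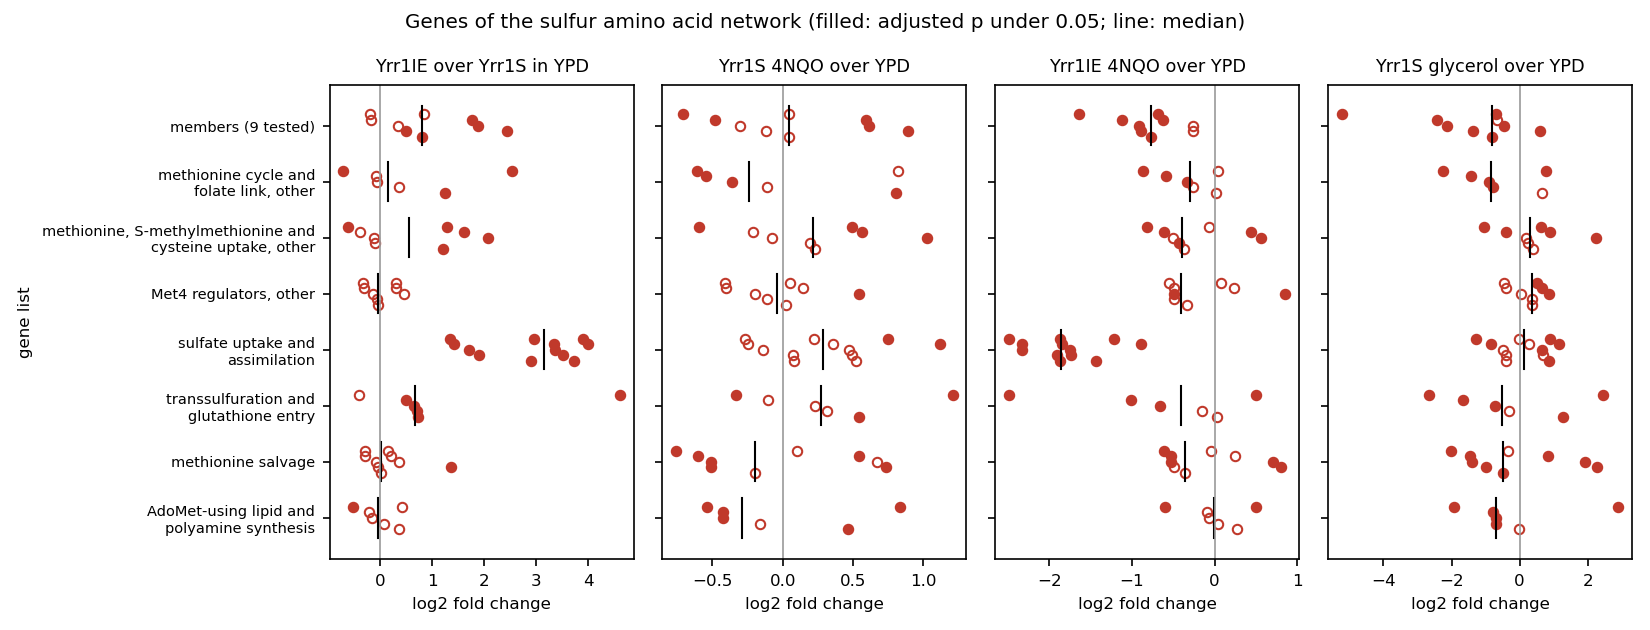
Log2 fold changes (x axis) of the 9 tested members and of the genes of the 7 other lists (rows) in 4 comparisons; filled points had an adjusted p under 0.05 and the black line is the median of the list. In the first panel all 12 sulfate uptake and assimilation genes lie above 0 with a median of 3.14, and in the third all 12 lie below 0 with a median of -1.85.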

How the data were processed

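RNA-Seq of 18 libraries (9 conditions, 2 libraries each) was re-analysed. Per the labels and the methods, the authors made unstranded TruSeq libraries, called bases with CASAVA 1.7, aligned reads to the S288c genome (R64) with TopHat 2.0.12 and counted them per gene with Rsubread. The deposited counts are whole numbers per locus with no normalization. The deposited FPKM, given to 1 decimal, follow from those counts, the exon lengths and the library totals. The table of the authors' own DESeq2 fold changes and p-values was not used.

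Counts were fitted in R 4.3.3 with edgeR 4.0.16 (limma 3.58.1): filterByExpr over the 9 conditions kept 5766 of 6713 loci, TMM factors were computed, and 1 quasi-likelihood model over all 18 libraries gave the 19 comparisons (glmQLFTest, two-sided, Benjamini-Hochberg over all tested loci, called at an adjusted p under 0.05). With 2 libraries per condition the spread is borrowed across conditions and loci, and each p-value sets a difference against that shared spread of these libraries. CPM uses TMM-scaled totals. Likeness used log2 CPM with a prior count of 2. DESeq2 1.42.0 was an alternative. So was leaving out each library in turn, which leaves 1 library in its condition and less power to call. The depth of 1475372 to 2826771 counts leaves *MET32* at 22 counts in its lowest library, and the limit of 3 counts covers counting error only.

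The members and gene lists were chosen with earlier results of these data known. All 10 members are named, while the other lists are given by their counts of calls and by a choice of their called genes. Promoter tables were not used here, so motifs were counted in the 500 bases before start codons of the R64 genome of RefSeq with Python 3.11.15. Of 6045 loci shared with the files, 6033 had the same coordinates, all members among them. *SNF1* and the locus opposite *MET28* were singled out after their counts were seen.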

Additional observations from a re-analysis of the deposited data

Results flagged for a closer look

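In all, 10 responses of a member differed between Yrr1IE and Yrr1S in the test of the difference itself. In 4NQO over YPD the Yrr1IE response was lower for *MET6* by -2.26 (log2 scale, adjusted p = 1.352e-09, edgeR), for *MUP1* by -1.51 (adjusted p = 2.025e-07), for *SAM3* by -1.28 (adjusted p = 2.527e-05) and for *SAM2* by -0.82 (adjusted p = 0.02733). In glycerol over YPD it was higher for *MUP3* by 1.43 (adjusted p = 0.001201), for *SAM2* by 1.21 (adjusted p = 0.0003368) and for *SAM1* by 1.20 (adjusted p = 0.0004051), and lower for *SAM3* by -1.20 (adjusted p = 2.83e-05), for *MUP1* by -1.18 (adjusted p = 5.692e-06) and for *MET6* by -0.79 (adjusted p = 0.003225). The *SAM2* difference in 4NQO was lost without S3, S4, S5, S6, S9, S10 or S12 and the *MET6* difference in glycerol without S6 or S16. The same YPD libraries enter both contrasts. *SNF1* had 0 to 2 counts in every Yrr1IE library, and *YRR1* was lower there in each medium. The part of either in these differences cannot be told apart from that of the allele.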

How the results depend on the processing

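No result called in the main fit or in an alternative changed direction between them. Direction was not followed for results called in neither. Over all members and comparisons, size factors of DESeq2 in edgeR left 171 of 171 results on the same side of the threshold, the DESeq2 Wald test 165, no filter 168, and fitting only the libraries compared 162. Without the Yrr1IE libraries, an alternative added after the data were seen, 80 of 81 results for Yrr1S and Yrr1Y stayed on their side. Leaving out 1 library kept 772, weakened 50 and strengthened 6. The count of members called between Yrr1IE and Yrr1S in 4NQO was 1, became 2 by DESeq2 and 3 with only the libraries compared, and was 0 without any 1 of its 4 libraries. Between Yrr1IE and Yrr1Y in 4NQO the count of 1 became 3 with only the libraries compared and was 0 without any 1 of its libraries. Between Yrr1Y and Yrr1S in glycerol it was 1, became 0 with only the libraries compared and 2 without the Yrr1IE libraries, and ran from 0 to 1 with 1 library left out. For 4NQO over YPD in Yrr1S it was 5, and ran from 3 (without S4) to 5. The 4NQO responses of Yrr1Y and Yrr1S differed in 0 members, and in 1 with only the libraries compared, and their glycerol responses in 0, and from 0 to 1 with 1 library left out (1 without S15). The causes were not tested. The paper's methods state that each culture was split, with 4NQO added to only part of it, so these libraries are paired by design. No paired analysis was possible because the labels give no culture number that ties a YPD library to a 4NQO library. The fit therefore treated them as independent. The 2 libraries per condition and the low counts of *MUP3*, *MET4* and *MET32* limit the precision, and *MET28* could not be measured.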
